A study of Mus musculus with 3 samples.

Results

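The collagen genes of the mouse heart were compared between animals treated with esmolol, a beta-1 adrenergic blocker of short action, and untreated animals. They were taken as all probes whose array annotation names exactly 1 gene with a symbol made of Col, a type number, the letter a and a chain number, whatever their measured values. This gave 44 genes with 89 probes, of 19532 named genes and 41174 probes in all. By the type of molecule they form, 11 were fibrillar (types I, II, III, V, XI, XXIV and XXVII), 6 were the type IV chains of basement membranes and 27 were other collagens.

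Collagens are secreted proteins of 3 chains wound into a triple helix, which the cell hydroxylates, folds with dedicated chaperones and trims outside the cell before they are cross-linked. Fibrillar collagens carry tensile load, and in the heart types I and III, made mainly by fibroblasts, form the network around and between the muscle cells. Type IV collagen forms the sheet beneath endothelium and around each cardiomyocyte, and type VI forms beaded filaments between that sheet and the fibrils.

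Total RNA from 30 mg of heart was hybridised on 2-colour oligonucleotide arrays, in a design of 6 groups of 8 C57BL/6 mice. The groups were untreated mice, mice given esmolol, mice made septic with intraperitoneal lipopolysaccharide (LPS, a bacterial cell wall component) without and with esmolol, and mice made septic by cecal ligature and perforation (CLP, which lets gut contents into the abdomen) without and with esmolol. Esmolol ran continuously into a central vein at 20 mg/kg/h, and the labels give no treatment for the other groups. The labels state no age, sex, LPS dose or time of sampling.

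There is 1 deposited value per probe for each of 3 contrasts, esmolol over untreated without sepsis, in LPS hearts and in CLP hearts, and each merges 4 replicates with dye swaps. No replicate error can therefore be given, and no difference below was tested. All values are ratios read as log2, the base being an assumption, and a gene is called higher or lower from 1.5-fold on (0.585 on the log2 scale). The title of the CLP sample names the untreated hearts first while the design text speaks of treated against untreated hearts, so its sign was turned after the title and its direction is not settled. If the sign is not turned, every CLP direction given here reverses. Over genes with more than 1 probe, the pooled standard deviation (SD) between probes was 0.11 without sepsis, 0.24 in LPS hearts and 0.10 in CLP hearts, and ratios of that size cannot be told from probe noise. In a bulk sample, fewer cells of a type and less RNA per cell cannot be told apart. A ratio also gives no level, so the labelled tissue could not be checked by marker abundance. Of 8 cardiomyocyte markers, 3, 6 and 5 had a probe at the value that recurs in each column and was read as saturation.

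Of the 44 genes, 41 had a value in all 3 contrasts. Col12a1 and Col28a1, with 1 probe each, had none, and Col8a2 lacked one in the non-septic contrast. Of the 89 probes 13 were blank without sepsis (14.6%) and 16 in each septic contrast (17.98%), beside 14.4% of all probes without sepsis, 15.2% in LPS and 18.6% in CLP hearts. Of the 15 probes designed on cDNA clones, 6 were blank throughout, against 5 of the 74 designed on curated transcripts.

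Col3a1, the chain of the type III fibrils of distensible tissue, was higher with esmolol in both forms of sepsis (0.81 in LPS and 0.71 in CLP hearts) and was at -0.17 without sepsis. In LPS hearts 4 collagen genes were higher by 1.5-fold or more, Col3a1, Col6a3, Col4a6 and Col5a2. In CLP hearts Col3a1 alone was. None was lower by as much in any contrast, and none was past 1.5-fold in non-septic hearts. The 4 genes were 9.52% of the 42 measured in LPS hearts, where 2.06% of all genes were called higher and 2.26% lower. The 1 gene was 2.38% of the 42 in CLP hearts, where 0.819% of all genes were called higher and 0.133% lower. In non-septic hearts 0 of 41 were called, where 0.219% of all genes were called higher and 0.241% lower.

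**Figure D1:**
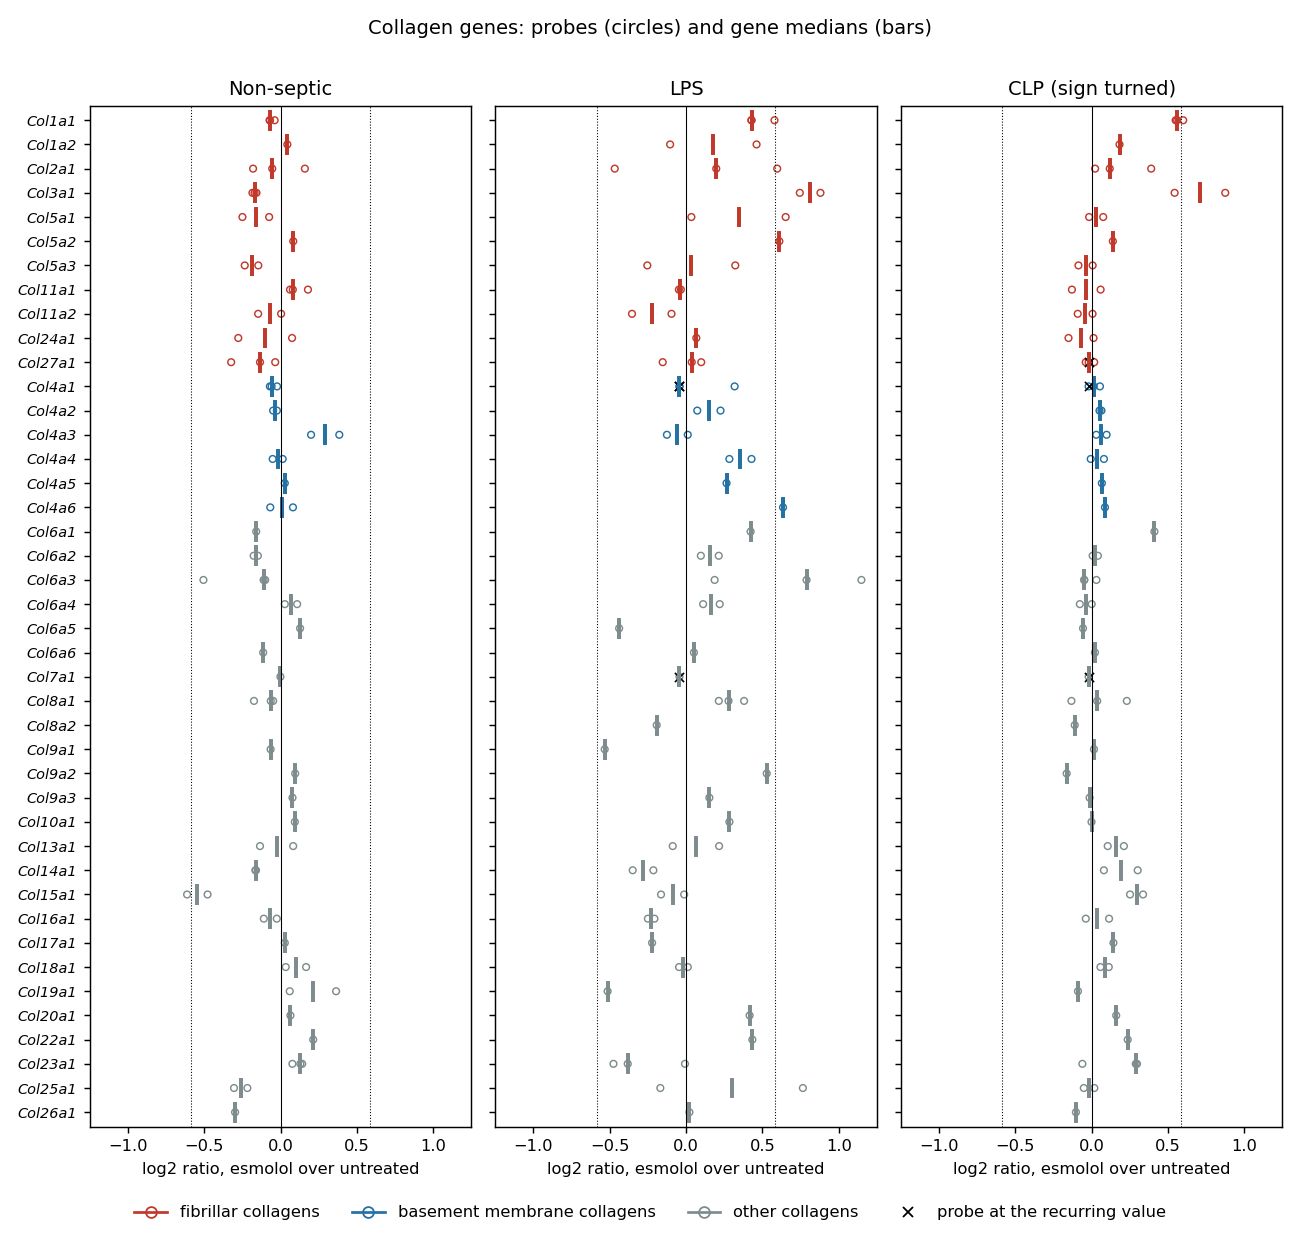
Log2 ratio with esmolol of each collagen gene (rows) in the 3 contrasts (panels); circles are probes, bars gene medians, crosses probes at the recurring value, and dotted lines mark 1.5-fold. Col3a1 and Col1a1 have all their probes above 0 in both septic contrasts and below 0 in non-septic hearts, while several genes, such as Col2a1 and Col25a1 in LPS hearts, have probes on both sides of 0.

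As classes, fibrillar collagens had a median of -0.07 in non-septic, 0.18 in LPS and 0.03 in CLP hearts. The median of all genes lay within 0.01 of 0 in each contrast. Of the 11 fibrillar genes, 3, 9 and 6 were above 0, beside 50.5%, 50.01% and 47.9% of all genes. Among the 9 in LPS hearts, Col1a2, Col2a1, Col5a3 and Col27a1 had probes on both sides of 0. Type IV genes had medians of -0.01, 0.21 and 0.06, with 3, 4 and 6 of 6 above 0, and the other collagens had medians of -0.01, 0.05 and 0.02. With types VII, XV and XVIII counted as basement membrane collagens, that median in LPS hearts was -0.02 instead of 0.21. All 9 class medians lay within the pooled SD between probes of their contrast. That SD is the spread of single probes of a gene and does not measure the error of a median over genes, which was not estimated. Over the collagens together the medians were -0.04, 0.11 and 0.03. Most collagens were inside the central 95% of all genes, 38 of 41 in non-septic, 38 of 42 in LPS and 39 of 42 in CLP hearts. Those above it in CLP hearts were Col3a1, Col1a1 and Col6a1. In LPS hearts they were the 4 genes called higher, and no collagen was below that range in either septic contrast.

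**Figure D2:**
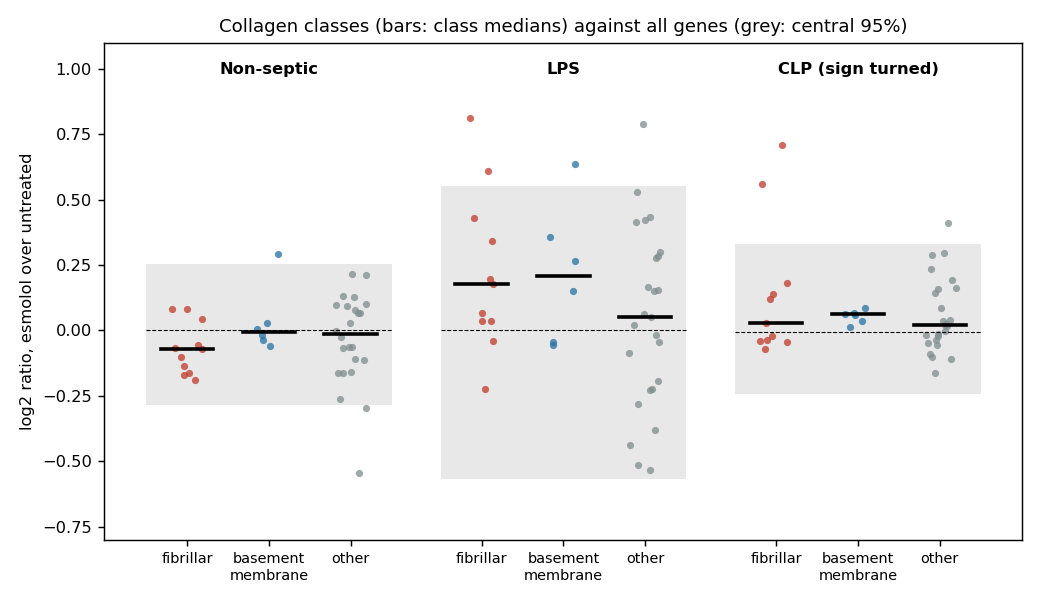
Log2 ratio with esmolol (vertical axis) of fibrillar, basement membrane (type IV) and other collagen genes in each contrast; points are genes, black bars class medians, grey bands the central 95% of all genes and dashed lines their median. The fibrillar median is -0.07, 0.18 and 0.03 from left to right, and 2 fibrillar genes, Col3a1 and Col1a1, stand above the band in CLP hearts.

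Among fibrillar collagens, Col3a1 had probe values of 0.75 and 0.88 in LPS hearts and 0.54 and 0.88 in CLP hearts. Its medians were 0.81 ± 0.10 (SD between probes, n = 2 probes, 1.76-fold) and 0.71 ± 0.23 (n = 2, 1.64-fold). It ranked 96 from the highest of 17733 genes in LPS and 89 of 17339 in CLP hearts. In non-septic hearts its 3 probes were at -0.18, -0.17 and -0.16, on the other side of 0. Of the 2 CLP probes, 1 was under 1.5-fold.

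Col1a1, the major chain of type I collagen, had its 3 probes at 0.43, 0.43 and 0.58 in LPS hearts and at 0.55, 0.56 and 0.60 in CLP hearts. The medians were 0.43 ± 0.09 (n = 3, 1.35-fold) and 0.56 ± 0.03 (n = 3, 1.47-fold), both under 1.5-fold, and the non-septic median was -0.07 ± 0.02. Its probes lay close together and on 1 side of 0 in each contrast. Col1a2, the partner chain in type I collagen, had 1 probe in non-septic (0.04) and CLP hearts (0.18). In LPS hearts its 2 probes differed, at -0.10 for the curated transcript and 0.46 for a cDNA clone (median 0.18 ± 0.40).

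The type V chains, which nucleate type I fibrils and set their diameter, had medians of differing size, each chain being highest in LPS hearts. Col5a2, with 1 probe, was at 0.08 in non-septic, 0.61 in LPS (1.53-fold) and 0.14 in CLP hearts. Col5a1 was at -0.16 ± 0.12, 0.34 ± 0.44 and 0.03 ± 0.07 (n = 2 each), its LPS probes lying at 0.03 and 0.65. Col5a3 was at -0.19 ± 0.06, 0.03 ± 0.41 and -0.04 ± 0.07, with LPS probes on both sides of 0. These spreads were wide enough that Col5a1 and Col5a3 had no settled ratio in LPS hearts.

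The remaining fibrillar genes belong mainly to cartilage or to developing tissue. Col2a1, the main cartilage collagen, was at -0.05 ± 0.17, 0.20 ± 0.54 and 0.12 ± 0.19 (n = 3 probes), with LPS probes from -0.47 to 0.60. Its type XI partners were near 0 or below it in sepsis, Col11a1 at 0.08, -0.04 and -0.04 and Col11a2 at -0.07, -0.22 and -0.04. Col24a1 was at -0.10, 0.07 and -0.07. Col27a1 was at -0.13, 0.04 and -0.02, the last at a probe on the recurring value. None of these 5 genes reached 1.5-fold.

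For 35 of the 44 genes, the RefSeq window from 250 bases before to 50 after the start (assembly GRCm38.p6) was searched on both strands for the CCAAT box, for a TATA motif spelled TATAAA and for a GC motif spelled GGGCGG. The windows of Col3a1 (chr1:45311288-45311587, plus strand) and Col1a2 (chr6:4505368-4505667, plus strand) are shown because the medians of these fibrillar genes differed in sepsis. They were 0.81 and 0.18 in LPS and 0.71 and 0.18 in CLP hearts, Col1a2 resting on 2 differing probes and on 1 probe. Any link between the windows and these ratios was not tested. Capitals mark matches to CCAAT or TATAAA, on either strand.
Col3a1: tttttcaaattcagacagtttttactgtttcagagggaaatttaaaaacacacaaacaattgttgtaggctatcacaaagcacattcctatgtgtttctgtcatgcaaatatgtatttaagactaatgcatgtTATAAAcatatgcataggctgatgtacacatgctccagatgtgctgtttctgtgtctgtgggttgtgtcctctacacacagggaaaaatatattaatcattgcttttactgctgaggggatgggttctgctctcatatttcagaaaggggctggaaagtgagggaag
Col1a2: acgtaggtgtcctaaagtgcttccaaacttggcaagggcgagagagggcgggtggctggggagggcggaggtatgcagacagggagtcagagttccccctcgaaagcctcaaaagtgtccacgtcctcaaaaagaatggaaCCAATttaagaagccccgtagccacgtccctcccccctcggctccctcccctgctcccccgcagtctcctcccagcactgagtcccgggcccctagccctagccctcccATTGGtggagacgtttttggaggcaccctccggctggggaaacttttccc
The Col1a2 window held CCAAT 2 times, once as printed and once in reverse complement, and GGGCGG 2 times. The Col3a1 window held 1 TATAAA, beginning at position -117 from the start, and none of the other motifs. CCAAT occurred in 13 of 38 collagen windows (34.2%) and 37.4% of all 32851 windows, TATAAA in 5 (13.2%) and 13.6%, and GGGCGG in 23 (60.5%) and 35.7%. Of the 8 fibrillar windows 3 held CCAAT, 2 TATAAA and 6 GGGCGG. A match describes letters and is not a binding site.

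Type IV values spanned -0.06 to 0.29 in non-septic, -0.06 to 0.64 in LPS and 0.01 to 0.09 in CLP hearts. The ubiquitous pair, Col4a1 and Col4a2, was at -0.06 and -0.04 in non-septic hearts and 0.01 and 0.06 in CLP hearts. In LPS hearts Col4a2 was at 0.15 ± 0.11 (n = 2). The Col4a1 median there, -0.04, is the recurring value itself, found at 2 of its 3 probes, and the other probe was at 0.32. If that value marks saturation, it gives no ratio for Col4a1 in LPS hearts.

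The chains of specialised basement membranes, such as that of the kidney glomerulus, did not all share a course. Col4a4, Col4a5 and Col4a6 had their highest ratios in LPS hearts, and Col4a3 in non-septic hearts. Col4a3 was the highest collagen of non-septic hearts (0.29 ± 0.13, probes at 0.20 and 0.39) and was at -0.06 in LPS and 0.06 in CLP hearts. Col4a4 was at -0.02, 0.36 ± 0.10 and 0.04, and Col4a5, with 1 probe, at 0.03, 0.27 and 0.07. Col4a6 was at 0.01, 0.64 (1.55-fold) and 0.09, its LPS and CLP values each resting on 1 probe of 3. In CLP hearts the 6 chains spanned 0.01 to 0.09, each closer to 0 than the SD between probes.

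Col4a1 and Col4a2 are neighbours on opposite strands, and their windows (chr8:11312777-11313076, minus strand, and chr8:11312555-11312854, plus strand) overlap by 78 bases. They are shown because the pair shares its start region. In the non-septic and CLP contrasts the ratios of both genes lay within the pooled SD between probes, so their likeness there says nothing particular to the pair. In CLP hearts 1 of the 3 Col4a1 probes was at the recurring value. Capitals mark the shared bases, which each line gives in its own gene's direction.
Col4a1: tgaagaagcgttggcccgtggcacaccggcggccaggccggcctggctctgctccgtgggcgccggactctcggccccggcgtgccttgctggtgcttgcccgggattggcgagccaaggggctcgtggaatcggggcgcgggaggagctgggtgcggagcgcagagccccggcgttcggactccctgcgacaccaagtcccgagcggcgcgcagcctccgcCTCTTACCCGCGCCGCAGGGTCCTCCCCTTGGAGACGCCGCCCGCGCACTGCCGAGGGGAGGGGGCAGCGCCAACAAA
Col4a2: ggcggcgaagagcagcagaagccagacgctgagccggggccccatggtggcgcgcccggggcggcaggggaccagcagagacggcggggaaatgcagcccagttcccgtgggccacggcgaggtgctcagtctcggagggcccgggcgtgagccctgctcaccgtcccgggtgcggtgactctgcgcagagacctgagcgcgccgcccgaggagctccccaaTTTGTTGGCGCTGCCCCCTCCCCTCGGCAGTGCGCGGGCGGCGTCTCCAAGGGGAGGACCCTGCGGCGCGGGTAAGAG
Each of the windows held 1 CCAAT outside or at the edge of the shared bases, Col4a1 held 1 GGGCGG and Col4a2 held 3, and neither held TATAAA. Some other neighbouring collagens differed in CLP hearts, and any part of position in these ratios was not tested. Col3a1 and Col5a2 on chromosome 1 were at 0.81 and 0.61 in LPS but 0.71 and 0.14 in CLP hearts, and Col6a1 and Col6a2 on chromosome 10 at 0.42 and 0.16 in LPS and 0.41 and 0.02 in CLP hearts.

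Type VI collagen is built from the Col6a1 and Col6a2 chains with Col6a3 as their usual partner. Col6a1, with 1 probe, was at -0.16 without sepsis, 0.42 in LPS hearts and 0.41 in CLP hearts. Col6a2 was at -0.16 ± 0.02, 0.16 ± 0.08 and 0.02 ± 0.02 (n = 2). Col6a3 had LPS probes at 0.19, 0.79 and 1.15 (median 0.79 ± 0.49, 1.73-fold), non-septic probes at -0.50, -0.11 and -0.10, and CLP probes between -0.05 and 0.03. All probes of these 3 chains were below 0 in non-septic hearts and above 0 in LPS hearts. The chains that can take the place of Col6a3 were at 0.07, 0.17 and -0.04 (Col6a4), 0.13, -0.44 and -0.06 (Col6a5) and -0.11, 0.05 and 0.02 (Col6a6).

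**Figure D3:**
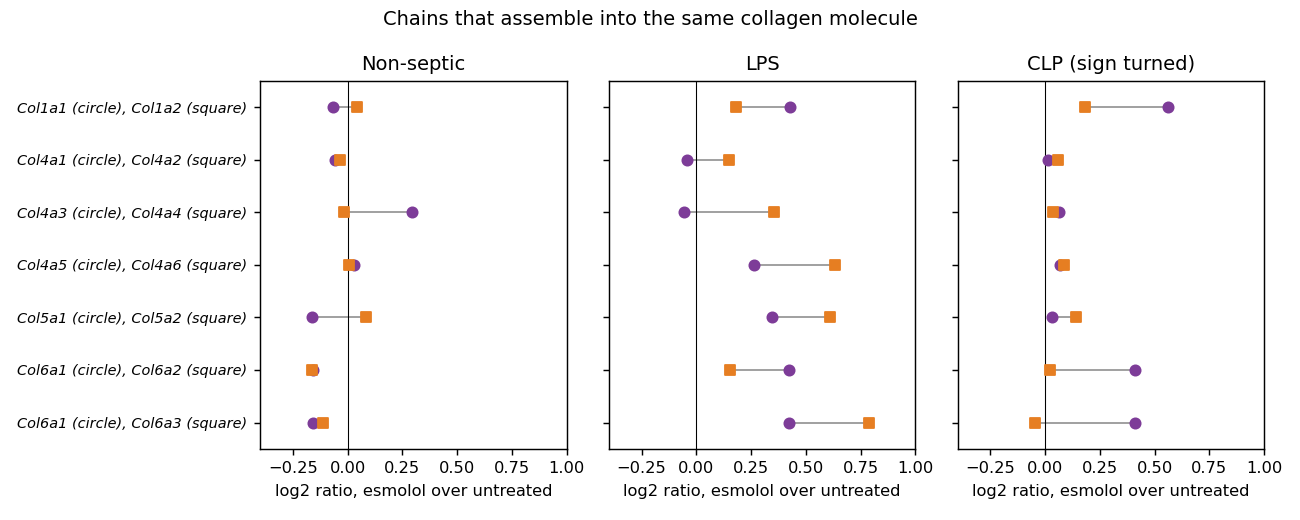
Log2 ratio with esmolol of chains that assemble into one collagen molecule, joined by a line, in the 3 contrasts; the circle is the first and the square the second gene of each row. In CLP hearts Col1a1 (0.56) and Col6a1 (0.41) lie apart from Col1a2 (0.18), Col6a2 (0.02) and Col6a3 (-0.05).

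The gaps between chains of one molecule exceeded the SD between probes for some molecules and not for others. That SD is the spread of single probes of a gene, while a gap carries the spread of both genes, so passing it is a weak mark. In CLP hearts Col1a1 exceeded Col1a2 by 0.38, Col6a1 exceeded Col6a2 by 0.39 and Col6a1 exceeded Col6a3 by 0.46, each above the pooled SD between probes of 0.10. In LPS hearts the gap between Col1a1 and Col1a2 was 0.25, beside a pooled SD of 0.24 over all genes and 0.28 over collagens. The gap between Col6a1 and Col6a3 was -0.37, while the widest was that of Col9a1 to Col9a2 (-1.06, 1 probe each). Gaps inside the pooled SD between probes included those of the type IV pairs in CLP hearts. They were -0.04 for Col4a1 to Col4a2, 0.03 for Col4a3 to Col4a4 and -0.02 for Col4a5 to Col4a6. Others were Col11a1 to Col11a2 in CLP (0.0074) and LPS hearts (0.18). Without sepsis, those of Col6a1 to Col6a2 (0.0028) and to Col6a3 (-0.05) were also inside it. Col1a2 and Col6a1 have 1 or 2 usable probes, so these gaps rest on few probes.

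Of the multiplexins, which sit at basement membranes and carry a cleavable inhibitor of vessel growth at their end, Col15a1 had the lowest non-septic value of any collagen. Its 2 probes were at -0.61 and -0.48 (median -0.54 ± 0.09, 1.46-fold lower), below all but 0.326% of the genes measured. In LPS hearts it was at -0.09 ± 0.11 and in CLP hearts at 0.29 ± 0.06, with both probes below 0 in the first and above 0 in the second. Col18a1, the source of endostatin, was at 0.10, -0.02 and 0.09. Col7a1, which forms the anchoring fibrils of skin, was at -0.0007 in non-septic hearts and had its 1 probe at the recurring value in both septic contrasts.

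Of the fibril-associated collagens, which coat or link fibrils, 8 of 9 were measured and none was past 1.5-fold. Col14a1, found on type I fibrils, was at -0.16, -0.28 and 0.19, each from 2 probes on the same side of 0. Col16a1 was at -0.07, -0.23 and 0.04. The cartilage type IX chains diverged in LPS hearts, with Col9a1 lowest of all collagens there (-0.53), Col9a2 at 0.53 and Col9a3 at 0.15, on 1 probe each. Col9a2 was lowest of the collagens in CLP hearts (-0.16). Col19a1 was at 0.21, -0.51 and -0.09. Its non-septic probes were at 0.06 and 0.36, and only the second had a value in LPS and only the first in CLP hearts. Its LPS and CLP ratios therefore share no probe. On the same probe, the LPS value of -0.51 stands beside 0.36 without sepsis, and the CLP value of -0.09 beside 0.06. Col20a1 was at 0.06, 0.42 and 0.16, and Col22a1, a collagen of muscle-tendon junctions, at 0.21, 0.43 and 0.24.

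The short-chain network collagens were at -0.06, 0.28 ± 0.08 and 0.04 for Col8a1 (n = 3 probes), a vessel wall collagen, and at 0.09, 0.28 and -0.0006 for Col10a1, that of growth plate cartilage. Col8a2 was at -0.19 in LPS and -0.11 in CLP hearts. Among the transmembrane collagens, Col23a1 was at 0.13, -0.38 ± 0.25 and 0.29 ± 0.20 and Col25a1 at -0.26, 0.30 ± 0.66 and -0.02, its LPS probes lying at -0.17 and 0.77. Col13a1 was at -0.03, 0.06 and 0.16 and Col17a1 at 0.03, -0.22 and 0.14. Col26a1 was at -0.30, 0.02 and -0.10. The transmembrane chains lay on both sides of 0 in each contrast.

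The pooled SD between collagen probes of one gene was 0.11 without sepsis, 0.28 in LPS and 0.11 in CLP hearts. Of the collagens with more than 1 measured probe, 6 of 26, 9 of 24 and 14 of 24 had probes on both sides of 0 (23.1%, 37.5% and 58.3%), beside 46.4%, 46.5% and 41.8% of all such genes. All probes were above 0 for 6, 9 and 10 of them and below 0 for 14, 6 and 0.

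Set side by side, the septic contrasts had 17 of 42 collagens above 0 in both (40.5%) and 6 below 0 in both (14.3%), beside 23.05% and 24.8% of the 17089 genes measured in both. With the CLP sign not turned, 10 of 42 (23.8%) would be above 0 in both, beside 27.2% of all genes. LPS and CLP ratios correlated with Pearson r = 0.33 and Spearman rho = 0.25 over the 42 collagens and with r = -0.18 and rho = -0.08 over all genes. These are coefficients across genes, which share arrays within a contrast and are not independent replicates. The coefficients also change sign with the CLP sign, and Col3a1, Col1a1 and Col6a1 would then lie above 0 in LPS hearts and below it in CLP hearts.

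**Figure D4:**
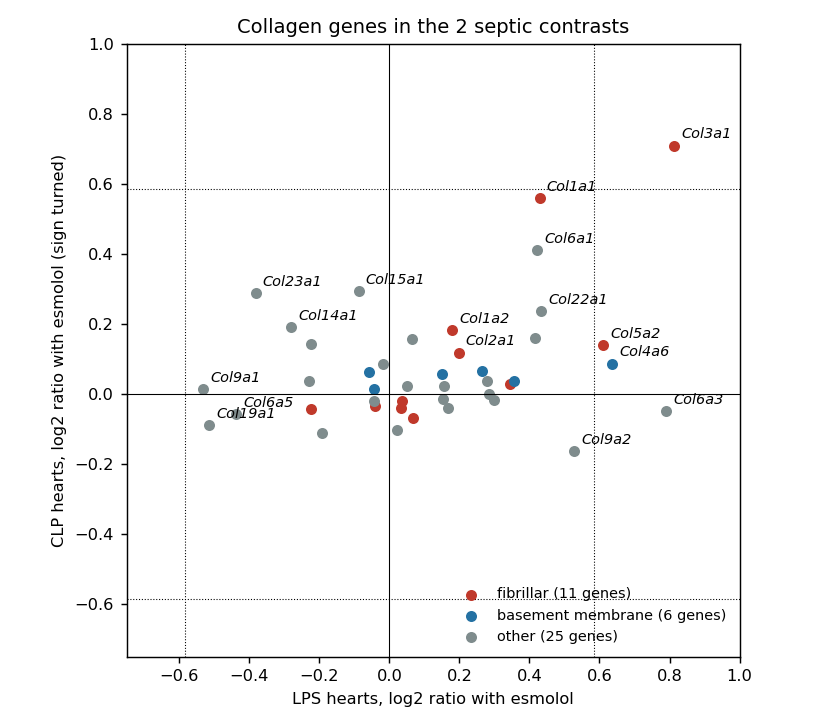
Log2 ratio with esmolol of 42 collagen genes in LPS hearts (horizontal axis) and in CLP hearts (vertical axis, sign turned after the title), coloured by class; dotted lines mark 1.5-fold. Col3a1 lies past 1.5-fold on both axes, while Col6a3, Col5a2 and Col4a6 do so in LPS hearts alone.

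Genes that make, process or bind collagen were taken as lists, and few genes of any kind were past 1.5-fold. Of all genes, 0.219%, 2.06% and 0.819% were called higher without sepsis, in LPS and in CLP hearts, and 0.241%, 2.26% and 0.133% lower. The list counts below are to be read beside these shares. Of the 20 folding and modification genes, 18, 19 and 18 were measured and 0 were past 1.5-fold, with medians of -0.01, 0.10 and 0.05. Serpinh1, the collagen-specific chaperone HSP47, was lowest of them in non-septic hearts (-0.50) and was at -0.10 and 0.05 in LPS and CLP hearts. Plod2, a lysyl hydroxylase for cross-link sites, was highest in non-septic hearts (0.13), Fkbp14, a prolyl isomerase, in LPS hearts (0.52 ± 0.10, n = 2 probes) and Crtap, a subunit of the prolyl 3-hydroxylase complex, in CLP hearts (0.31). The lowest were P4ha3, a prolyl 4-hydroxylase subunit, in LPS hearts (-0.34) and P3h2, a prolyl 3-hydroxylase, in CLP hearts (-0.14).

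Of the 16 processing and cross-linking genes, 14, 13 and 13 were measured, and 1 of the 14 was higher in non-septic hearts, where 0.219% of all genes were, and 0 in sepsis. This was Lox, the lysyl oxidase that starts cross-linking, at 0.59 in non-septic, -0.43 in LPS and -0.04 in CLP hearts on 1 probe. Its relative Loxl1 was at -0.35, 0.43 and 0.27. Pcolce, the enhancer of procollagen C-terminal cleavage, was highest in CLP hearts (0.56) and the protease Mep1a lowest (-0.08). The medians were 0.08, 0.04 and 0.10.

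Of the matrix partners of fibrils, small leucine-rich proteoglycans had medians of 0.03, -0.15 and 0.24 with 0 of 12, 11 and 12 past 1.5-fold. Podn was highest in non-septic (0.55) and CLP hearts (0.54), and Lum, which regulates fibril diameter, was lowest in LPS hearts (-0.42). The lowest in the other contrasts were Fmod, a regulator of fibril assembly, without sepsis (-0.30) and Aspn in CLP hearts (-0.22), and Aspn was highest in LPS hearts (0.45). Fibril-associated glycoproteins had medians of 0.02, -0.05 and 0.12. Sparc, a collagen-binding protein of the matrix, was higher in LPS hearts (0.72 ± 0.02, n = 2 probes) and at 0.16 and 0.12 in non-septic and CLP hearts. Thbs2, a matricellular thrombospondin, was lower in CLP hearts (-0.59) and at 0.57 and 0.54 in the other contrasts, on 1 probe. Fn1, fibronectin, was highest of the list in CLP hearts (0.54) and at -0.31 ± 0.32 in LPS hearts, while Tnc was lowest without sepsis (-0.18) and Comp in LPS hearts (-0.53).

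Basement membrane partners of type IV collagen had medians of 0.09, -0.03 and -0.08. Hspg2, the proteoglycan perlecan, was higher (0.64) and Nid1, which links laminin to type IV collagen, lower (-0.60) in LPS hearts, each on 1 probe, and the other 11 of 13 measured were under 1.5-fold. The laminin chain Lama5 was highest without sepsis (0.48) and lowest in CLP hearts (-0.19), Lamb1 lowest without sepsis (-0.16) and Lama4 highest in CLP hearts (0.16). Collagen receptors had medians of -0.01, -0.05 and 0.07. Mrc1, a macrophage mannose receptor that also takes up collagen, was the 1 member past 1.5-fold (0.81 in LPS hearts). The collagen-binding integrin chain Itga2 was lowest in LPS hearts (-0.34), Lair1 lowest without sepsis (-0.17), the receptor kinase Ddr1 highest in CLP hearts (0.40), and Adgrg1 highest without sepsis (0.21) and lowest in CLP hearts (-0.36).

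**Figure D5:**
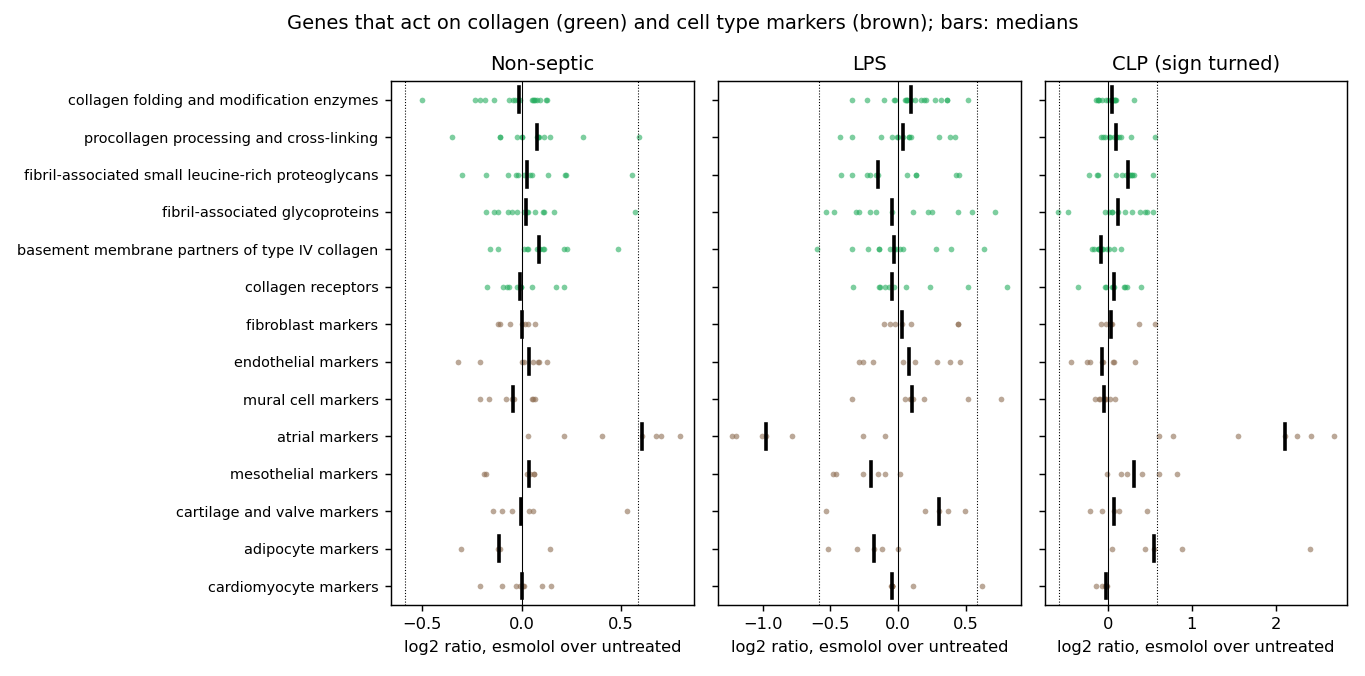
Log2 ratio with esmolol of genes that act on collagen (green) and of cell type markers (brown) in the 3 contrasts, whose horizontal scales differ; points are genes, black bars list medians and dotted lines 1.5-fold. Fibroblast medians lie within 0.05 of 0 in each panel, while atrial medians lie at 0.61, -0.98 and 2.11.

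Fibroblast markers, 7 of 8 measured, had medians of 0.0038, 0.03 and 0.04 and 0 were past 1.5-fold, their ranges being -0.12 to 0.07, -0.10 to 0.45 and -0.08 to 0.56. The highest in CLP hearts was Pcolce, which is also on the processing list. Endothelial markers had medians of 0.04, 0.08 and -0.07 (0 of 8 past 1.5-fold), and mural cell markers -0.04, 0.11 and -0.04, with Notch3 (0.76 in LPS hearts) past it. Cartilage and valve markers had medians of -0.0046, 0.30 and 0.08 with 0 past 1.5-fold. Cardiomyocyte markers had medians of 0.0001, -0.04 and -0.02, the septic ones at the recurring value, and Tnnt2 in LPS hearts had 1 probe at that value and the other at 1.28, so its median of 0.62 rests in part on a value that may give no ratio.

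The largest ratios of atrial markers exceeded those of every collagen in size in each contrast. Atrial markers had a median of 0.61 in non-septic hearts (range 0.03 to 0.80, 4 of 7 higher), -0.98 in LPS hearts (-1.23 to -0.09, 5 lower) and 2.11 in CLP hearts (0.60 to 2.69, 7 higher). Mesothelial markers had medians of 0.04, -0.20 and 0.31, with 2 of 6 higher in CLP hearts (Upk1b at 0.82 and Upk3b at 0.61), and adipocyte markers -0.11, -0.18 and 0.55, with 2 of 5 higher there (Ucp1 at 2.40 and Adipoq at 0.89). The atrial, mesothelial and adipocyte medians were below 0 in LPS and above 0 in CLP hearts. Of 42 collagens, 9 had these signs, among them Col23a1, Col14a1 and Col15a1, beside 4248 of the 17089 genes measured in both. Another 17, with Col3a1, Col1a1 and Col6a1, were above 0 in both, 6 were below 0 in both and 10 had the reverse signs. The part of these tissues in the collagen ratios was not tested.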

How the data were processed

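Log ratios of 2-colour arrays were used as the authors deposited them, 1 log ratio per probe and contrast, read as log2; per the labels, each merges 4 replicates with dye swaps. No source used here gives the scanner, background correction, normalization, filters or log base. The number of hybridizations limits the precision, and their spread was not carried by the merged values. Column medians as deposited were 0.0044, 0.0083 and 0.0072 (non-septic, LPS, CLP), and the CLP sign was turned after its title. The value found at 359, 526 and 538 probes, far more often than any other of its column, was kept. Of the probes, 32664 named 1 gene; symbols were updated through RefSeq gene IDs (32524 matched), and probes were collapsed by their median (Python 3.11.15, pandas 2.3.3). Counting and collapsing were tested on simulated data. Genes are described in full if fibrillar or type IV, past 1.5-fold, or among the 3 highest or lowest collagens of a contrast; partner genes if past 1.5-fold or at the end of their list. The members, lists and rules were chosen with earlier results of these data known. Promoter windows are RefSeq's (GRCm38.p6). Alternatives covered collapsing, recurring values, centring, thresholds, log base, class limits and the CLP sign.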

Additional observations from a re-analysis of the deposited data

How the results depend on the processing

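The number of collagen genes past 1.5-fold (0 in non-septic, 4 in LPS and 1 in CLP hearts) moved with the fold and with the reading of the logarithm. At 1.3-fold it was 1, 13 (9 higher, 4 lower) and 3, and at 2-fold 0 in LPS and 0 in CLP hearts. With the probe farthest from 0 it was 1, 7 and 2. Read as natural logarithms the values gave 1, 12 and 3, and read as log10 7, 26 and 8. No share of all genes is given for these settings. The counts therefore show how the rule moves the number called and cannot be set against other genes. In LPS hearts the fibrillar median was 0.46 with the probe farthest from 0, since that rule keeps the extreme probe. In CLP hearts it was 0.18 without genes whose probes lay on both sides of 0, and with the sign not turned the type IV median was -0.061 and Col3a1 was at -0.71. The other 96 of 113 recomputed counts and medians stayed within 1.5 times the count or within the pooled SD between probes. Every class median was itself within that SD, so a median could fall to 0 or change sign and still be among the 96. The CLP count with the sign not turned was also among them, though it went from 1 gene higher to 1 lower. The 96 therefore say little about stability. They included averaging probes, leaving out recurring values, subtracting column medians and keeping genes measured in all 3 contrasts. Adding types VII, XV and XVIII to the basement membrane class took its LPS median from 0.21 to -0.02, a change of sign that lay within that SD. No paired analysis was possible because each contrast is a single merged column. Without replicates or intensities, neither the spread between animals nor signal over background could be assessed.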
